A study of Mus musculus with 4 samples.

Results

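Igfbp4-high cells were the spleen CD4 T cells of this series with at least 2 UMIs of Igfbp4 and 0 UMIs of Foxp3, a UMI being a count of 1 captured transcript molecule. They numbered 145 in mouse 1 and 225 in mouse 2, 370 of the 12325 cells kept in all. Cells were kept when 500 or more genes were detected, no more than 10% of UMIs were mitochondrial, and the same mouse's contig table gave them 1 T cell receptor β chain (TRB) contig and no more than 2 α chain (TRA) contigs. Of the kept cells with 0 Foxp3 UMIs, 2.86% of mouse 1 (95% exact binomial interval 2.42 to 3.35) and 4.34% of mouse 2 (3.80 to 4.93) were Igfbp4-high, a mean of 3.598% ± 1.05 (SD, n = 2 mice). They were described against the remaining kept cells with 0 Foxp3 UMIs, 4929 in mouse 1 and 4961 in mouse 2, called the remaining cells here.

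The donors were B6.H2g7 mice, given in the labels as strain B6.NOD-(D17Mit21-D17Mit10)/LtJ and aged 6 to 8 weeks, a C57BL/6 background with the major histocompatibility haplotype of the NOD strain. Per the labels, 5000000 column-purified splenic CD4 T cells went into NOD.Rag1null hosts, which have no T or B cells of their own, and no group of untransferred cells is among the samples. On day 14 live spleen cells of each host positive for CD4 and TCRβ were sorted, and a 5′ gene expression library and a receptor library were made per host. All comparisons set classes of cells within these 2 hosts against each other. The labels mention a pair of donors without saying whether their cells were pooled, so it is not known whether the 2 hosts are independent. The p-values below cover these 2 hosts only. They rest on a spread pooled over genes, with differences between the hosts taken out.

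Igfbp4 encodes insulin-like growth factor binding protein 4, a secreted protein that holds insulin-like growth factors, and its transcript is a known feature of naive mouse CD4 T cells. Naive T cells recirculate through lymphoid organs with the chemokine receptor CCR7, and transcription factors such as BACH2, FOXP1, LEF1 and TCF1 (Tcf7) keep them undifferentiated. In a host without lymphocytes, transferred T cells divide, and many take on effector features such as chemokine and granzyme transcripts. The title of the series concerns Vβ3 T cells, whose β chain uses the TRBV26 segment, and mammary tumor viruses, whose superantigens bind receptors through the β-chain V segment.

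The expression libraries held 70092822 and 75940181 UMIs, of which the kept cells had 38725969 and 44796902. Igfbp4-high cells held 1125860 and 2178596 UMIs in sum. They were deeper than the remaining cells, at medians of 7674 and 9670 UMIs per cell against 5456 and 6080, and 2565 and 2980 genes against 2260 and 2462. Mitochondrial shares were alike, at medians of 1.65% and 1.76% against 1.74% and 1.82%. The 2 expression libraries shared 166 cell barcodes, 58 of them kept in both and 1 of them an Igfbp4-high cell in both.

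Igfbp4 itself, which chose the cells, is given as a description. The gene (ENSMUSG00000017493) spans 99041244 to 99054392 of chromosome 11 (GRCm38, plus strand). Most cells had no Igfbp4 UMI. In mouse 1, 4872 cells with 0 Foxp3 UMIs had no Igfbp4 UMI, 57 had 1, 7 had 2 and 7 had 3, while the Igfbp4-high cells had a median of 12 and a maximum of 59. In mouse 2 the counts were 4901 cells with none, 60 with 1, 25 with 2 and 17 with 3, with a median of 11 and a maximum of 77 in the Igfbp4-high cells. The cells just outside the rule, with 1 UMI, were thus more numerous than those just inside it, and most Igfbp4-high cells lay well above it. Another 7 and 9 kept cells had at least 2 Igfbp4 UMIs and also Foxp3 UMIs, and were left out by the rule. After thinning each cell to 3000 UMIs, 95% and 90.6% of the Igfbp4-high cells deep enough for it still had an Igfbp4 UMI, against 0.569% and 0.536% of the remaining cells.

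**Figure D1:**
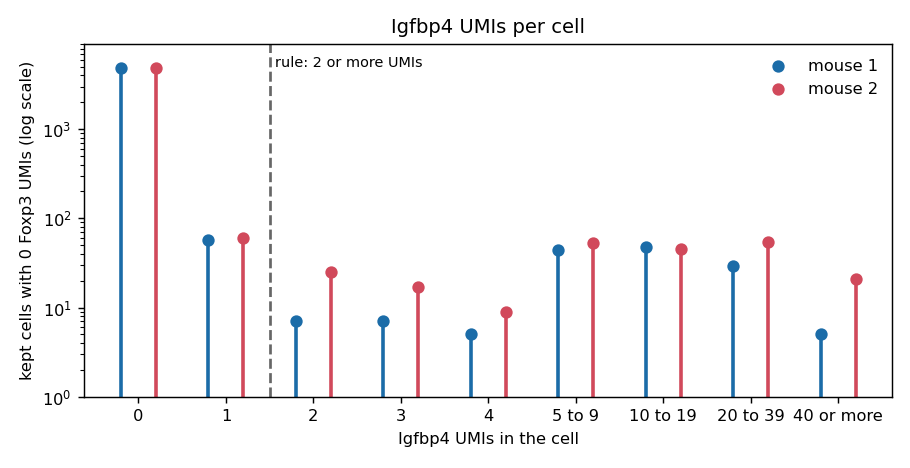
Number of kept cells with 0 Foxp3 UMIs (y axis, log scale) by their number of Igfbp4 UMIs (x axis), each mouse as a stem with a point; the dashed line marks the rule. Cells with 2, 3 and 4 UMIs number 7, 7 and 5 in mouse 1 and 25, 17 and 9 in mouse 2. Counts over ranges, such as 44 and 53 cells with 5 to 9 UMIs, span more values and cannot be read against those of single values.

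Most listed naive T cell genes were higher in the Igfbp4-high cells, and most tested effector, helper-subset and inhibitory receptor genes were lower. UMIs were summed per mouse and class and tested with edgeR's quasi-likelihood test with the mouse as a block, at a Benjamini-Hochberg adjusted p of 0.05 over all genes tested. Of 12664 genes, 34.1% passed: 1919 were higher (15.2%) and 2401 lower (19%). Levels below are CPM, counts of a gene per 1000000 UMIs of its sum, and differences are edgeR's log2 fold changes with their standard errors (SE). Their scale sat 0.19 above the log2 ratio of the CPM values (median over 3855 genes of at least 50 CPM in a class). On that plain CPM scale 20 of the 1919 higher genes changed sign and none of the 2401 lower ones did. In sums of this kind, more cells with a transcript and more transcript per cell cannot be told apart, so shares of cells with a UMI are given beside the leading genes.

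Ly6c1, a GPI-anchored surface protein of the Ly6 family, had the largest increase that the naming rule found. Its level was 458 CPM in the Igfbp4-high cells of mouse 1 and 484 CPM in those of mouse 2, against 2.53 and 3.56 CPM in the remaining cells, a log2 difference of 7.45 ± 0.10 (SE, adjusted p = 1.87e-166). A Ly6c1 UMI was found in 53.8% and 58.7% of Igfbp4-high cells and in 0.670% and 0.927% of the remaining cells. The near-identical copy Ly6c2, at 5.33 and 11.02 CPM against 56.9 and 79.5, was lower, at -2.79 ± 0.20, and how the counting split reads between the pair is not given in the sources used here. Dapl1, a marker transcript of resting T cells, stood at 176 and 229.97 CPM against 4.17 and 3.26, a log2 difference of 5.99 ± 0.13. Ccr7 stood at 495 and 523 CPM against 55.8 and 80.3, a log2 difference of 3.09 ± 0.07. These 3 genes had been named as markers of the class from the same data, so their differences are no independent support for its name. With cells thinned to 3000 UMIs, Ccr7 was found in 68.6% and 69.5% of Igfbp4-high cells against 12.7% and 15.6% of the remaining cells, so the difference in detection was present at equal depth.

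The other large increases were of varied function. Pdlim4, a PDZ and LIM domain protein of the actin cytoskeleton, was at 158 and 181 CPM against 2.53 and 3.02, at 6.12 ± 0.14. Myo6, an unconventional myosin, was 5.20 ± 0.20 higher and Treml2, a receptor of the TREM family, 4.49 ± 0.19. Plac8 followed at 3.41 ± 0.11, Usp18, which removes ISG15 from proteins, at 3.04 ± 0.15, and the repressor Bach2 at 3.02 ± 0.08. The integrin β3 gene Itgb3 (3.01 ± 0.17), the matrix protein gene Ecm1 (2.99 ± 0.15) and the interleukin 4 receptor gene Il4ra (2.77 ± 0.14) completed the 12 largest. The naming rule took only genes with the same direction in both mice, so the higher level of each of the 12 in both mice is no separate result.

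The 12 largest decreases ran from chemokines and a cytokine to intracellular and membrane proteins. Ccl5, a chemokine of effector and memory T cells, was at 14099 and 14169.7 CPM in the remaining cells and at 180.3 and 78.9 CPM in the Igfbp4-high cells, a log2 difference of -6.72 ± 0.08. The median cell of either class had few Ccl5 UMIs, 1 and 1 in Igfbp4-high cells and 3 and 2 in the remaining cells, and the sums differed through cells with very many. Of the remaining cells, 1778 and 1835 had 20 or more Ccl5 UMIs, with maxima of 1382 and 1467. Among Igfbp4-high cells 1 cell of mouse 1 had 20 or more, and the highest in mouse 2 had 5. The chemokines Ccl3 (-7.22 ± 0.18) and Ccl4 (-7.04 ± 0.13), osteopontin Spp1 (-7.58 ± 0.42) and Ifng (-6.48 ± 0.24), the Th1 cytokine, were lower too. Ifng gave 1 and 4 UMIs in all Igfbp4-high cells together, 0.888 and 1.84 CPM against 166 and 149 CPM. The remaining leading decreases were Gcg (-7.33 ± 0.31), the glucagon precursor, the lectin Lgals3 (-6.88 ± 0.21), Plek (-6.07 ± 0.29), Sostdc1 (-5.81 ± 0.19), the G protein regulator Rgs16 (-5.80 ± 0.31), Tmem163 (-5.80 ± 0.35) and Nrgn (-5.66 ± 0.26). Several of these rest on very few UMIs in the Igfbp4-high cells, with 1 UMI of Gcg in each mouse and 1 of Spp1 in all, so the size of their difference is loosely set.

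**Figure D2:**
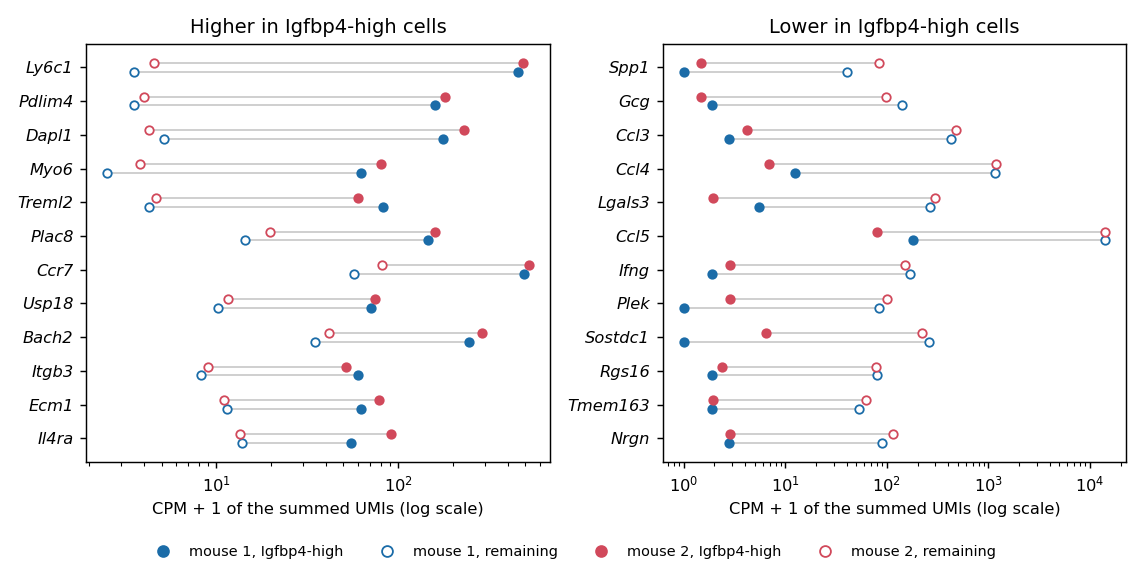
Levels of the 12 largest increases (left) and 12 largest decreases (right) as CPM + 1 on a log axis, filled points for Igfbp4-high cells and open points for remaining cells, 1 colour per mouse. All 24 genes were picked for a large difference with the same direction in both mice. Ccl5 has the highest level of the remaining cells, at 14099 and 14169.7 CPM.

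Of 20 genes listed for naive and quiescent T cells, 16 were higher, 1 was lower and 3 did not pass, with a median log2 difference of 1.43 against -0.05 over all genes tested. Satb1, a chromatin organizer of T cell development, was at 397 and 461 CPM against 78.5 and 89.6 (2.54 ± 0.07). Lef1 was at 614 and 660.1 CPM against 204 and 202 (1.84 ± 0.06), and Il7r, which carries the survival signal of interleukin 7, at 319 and 397 against 107 and 167 (1.57 ± 0.07). Tcf7 was the smallest increase that passed, at 0.39 ± 0.06. The exception was Cd27, a costimulatory receptor often listed with naive cells, at 193 and 189 CPM against 292 and 263 (-0.34 ± 0.08).

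Of 20 effector and activation genes, 17 were lower, 1 was higher and 2 did not pass (median -1.79). S100a4, a calcium-binding protein of memory and effector T cells, was at 24.0 and 30.3 CPM against 1001 and 1128 (-5.08 ± 0.10), and the adhesion receptor Cd44 at 21.3 and 33.97 against 107 and 114 (-1.73 ± 0.13). The higher gene was the early activation marker Cd69, whose plain CPM were 71.1 and 81.7 against 71.03 and 72.4, so its difference of 0.30 ± 0.11 rests on the scaling. Of 15 genes induced by T cell receptor signals, 10 were lower, led by Nr4a2 (-5.05 ± 0.32) and Xcl1 (-3.59 ± 0.27), and 3 were higher, among them Myc (2.11 ± 0.13).

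Every helper-subset list had more lower than higher genes. Of 16 Th1 genes 15 were lower and none higher (median -2.63), and all 14 genes listed for follicular helper cells were lower (median -3.34), with Cxcr5 at 2.66 and 5.51 CPM against 73.8 and 65.6. All 12 cytotoxic genes were lower, at a median of -4.92. Nkg7 stood at 53.3 and 40.9 CPM against 2039 and 2250.4 (-5.39 ± 0.09) and Gzmk at 23.1 and 5.05 against 697 and 491 (-5.45 ± 0.13). Klre1 had 0 UMIs in the Igfbp4-high cells of both mice and 340 and 352 in the remaining cells, at least 11.9-fold lower against a floor of 3 UMIs over both sums. With it at that bound the median of the cytotoxic genes was -4.22. Of 5 tested Th2 genes 3 were lower, led by Il4 (-5.48 ± 0.65, 1 UMI in all Igfbp4-high cells). All 8 tested Th17 genes were lower, among them Ccr6 (-5.07 ± 0.71), and Il23r at 0 UMIs was at least 3.14-fold lower. Of 12 inhibitory receptor and exhaustion genes 10 were lower and 1, Btla, was higher (median -2.99). The decreases were led by Lag3 at 8.88 and 6.89 CPM against 383 and 389.9 (-5.48 ± 0.15) and Tigit (-5.23 ± 0.14). Although cells with a Foxp3 UMI were outside both classes, 9 of 13 regulatory T cell genes were lower, led by the proenkephalin gene Penk (-6.22 ± 0.55) and Ikzf2 (-4.62 ± 0.17), and Gpr83 was higher.

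Most homing receptors other than Ccr7 were lower. Among them was Cxcr6, a chemokine receptor of inflamed tissue, at 1.78 and 9.18 CPM against 117 and 153 (-4.22 ± 0.19). In a list of 18, which left Ccr7 to the naive list, 12 of 17 tested genes were lower (median -1.49). The 3 higher ones were Selplg, the selectin ligand PSGL-1 (0.85 ± 0.06), Itgb7 and S1pr4. Of 16 cytokine receptor chains, 10 were higher and 3 lower, with the interferon-γ receptor chain Ifngr2 at 25.8 and 23.4 CPM against 2.53 and 2.54 (3.45 ± 0.29). The lower chains were Il2rb, Il10ra and Il15ra.

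Genes induced by type I interferon were higher as a list, with 19 of 23 tested higher, none lower and a median of 0.94. Examples are Usp18 and Ifit3, the latter at 25.8 and 27.1 CPM against 3.64 and 6.07 (2.59 ± 0.25). The insulin-like growth factor axis, whose binding protein gave the class its name, showed no common direction. Of 8 tested genes 2 were higher and 3 lower, with the receptor Igf1r at 7.99 and 11.9 CPM against 28.2 and 27.6 (-1.21 ± 0.23) and the other binding protein gene Igfbp7 at -5.87 ± 0.59. Igf1 had 0 UMIs in Igfbp4-high cells and at most 2.12 CPM in the remaining cells.

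Survival, metabolism and division genes went both ways. Bcl2 was at 542 and 599.9 CPM against 147 and 170.2 (2.04 ± 0.07), while the neighbouring family copies Bcl2a1b (-2.55 ± 0.11) and Bcl2a1d (-3.65 ± 0.17), whose reads may be shared between near-identical genes, were lower. Of 12 apoptosis genes 3 were higher and 4 lower, and of 16 glycolysis genes 3 were higher and 6 lower, with Slc16a3 (-2.96 ± 0.60) and Pfkp (-0.62 ± 0.10) leading the latter. Of 8 Gimap genes, GTPases of lymphocyte survival, 5 were lower, led by Gimap5 (-1.10 ± 0.09) and Gimap7 (-0.70 ± 0.07). Of 22 proliferation genes 14 were lower and 1 higher (median -0.58), led by Ube2c (-1.35 ± 0.14) and Cdk1 (-1.10 ± 0.18). Among cells of 4000 to 10000 UMIs, however, Ube2c was at 0.19 (adjusted p = 0.74) and Cdk1 at -0.17 (adjusted p = 0.83). By a count of at least 3 of 10 cycle genes, chosen after the data were seen, 4.83% and 6.22% of Igfbp4-high cells were cycling, against 9.23% and 6.25% of remaining cells, so the mice differed here. Of 79 ribosomal protein genes, a list also added afterwards, 77 were higher and none lower (median 0.90).

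Transcripts of tissue dissociation were mixed, with 7 of 14 tested higher, among them Jun, Fos and Hspa1a, and 4 lower, among them Ier3 (-4.55 ± 0.30) and Egr1 (-1.28 ± 0.13); their part in the other differences was not tested. Several defining markers of other cell types were at 0, and some others were not. The B cell genes Cd79a, Ms4a1, Ebf1 and Pax5 had 0 UMIs in the Igfbp4-high cells of both mice, as did the NK cell genes Ncr1, Klrb1c and Tyrobp and the myeloid genes Lyz2, Csf1r and Cd68. Of these only Klrb1c, Tyrobp and Cd68 were tested. The others had too few UMIs over all sums, and Ncr1 had 0 in the remaining cells of mouse 1 too, so their 0 in the smaller Igfbp4-high sums says little. Ighm, listed with B cells, was higher at 219 and 216 CPM against 66.9 and 75.1. Summed over 8 B cell genes the level was 244 and 244 CPM against 193 and 185, with Ighm and Cd74 making up nearly all of it. Summed over 6 NK genes it was 0.888 and 1.38 CPM against 24.99 and 28.1, and over 10 myeloid genes 107 and 96.9 against 219.7 and 193. Of the CD8 coreceptor genes, Cd8a had 0 UMIs in both classes, and Cd8b1 was higher at 8.88 and 12.4 CPM against 7.88 and 5.53 (0.99 ± 0.30, adjusted p = 0.0053). Thinned to 3000 UMIs a cell, Cd8b1 was found in 2.14% and 4.48% of Igfbp4-high cells against 2.25% and 1.76% of remaining cells, so the mice pointed opposite ways, and in 6.21% and 8.44% against 4.20% and 3.25% before thinning. The part of these markers in the other differences was not tested. Cd4 itself was lower, at 258 and 244 CPM against 417 and 454 (-0.62 ± 0.07, adjusted p = 5.16e-15). It was found in 86.2% and 87.1% of Igfbp4-high cells and 85.9% and 89.9% of the shallower remaining cells. After thinning, which left out 5 and 2 Igfbp4-high and 532 and 295 remaining cells, the shares were 55.0% (46.4 to 63.4) and 52.0% (45.2 to 58.7) against 70.3% (68.9 to 71.6) and 71.8% (70.5 to 73.1).

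How these genes varied with the amount of Igfbp4 was examined in 6 classes of cells by Igfbp4 UMIs, with no test. Ccr7 stood at 54.7 CPM in the cells of mouse 1 with 0 Igfbp4 UMIs, at 148 with 1, at 291 with 2 to 4, at 482 with 5 to 9, at 552 with 10 to 19 and at 542 with 20 or more. In mouse 2 the same classes had 78.7, 196, 342, 545, 496 and 626 CPM. Ly6c1 followed a like course from 2.26 and 3.00 CPM with none to 23.8 and 44.0 with 1, 316 and 218 with 2 to 4, and 454 and 558 with 20 or more. S100a4 went the other way, from 1008 and 1134 CPM with none to 37.97 and 72.7 with 2 to 4, and to 10.6 and 4.80 with 20 or more. Ccl5 was at 405 and 96.3 CPM in cells with 2 to 4 UMIs, and between 126 and 177 in mouse 1 and between 66.1 and 88.2 in mouse 2 in the higher classes. Median depth differed too, at 5453.5 and 6074 UMIs in cells with none, 7448 and 9180 with 2 to 4 and 8172.5 and 10736.5 with 20 or more, and its part in these courses was not tested.

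**Figure D3:**
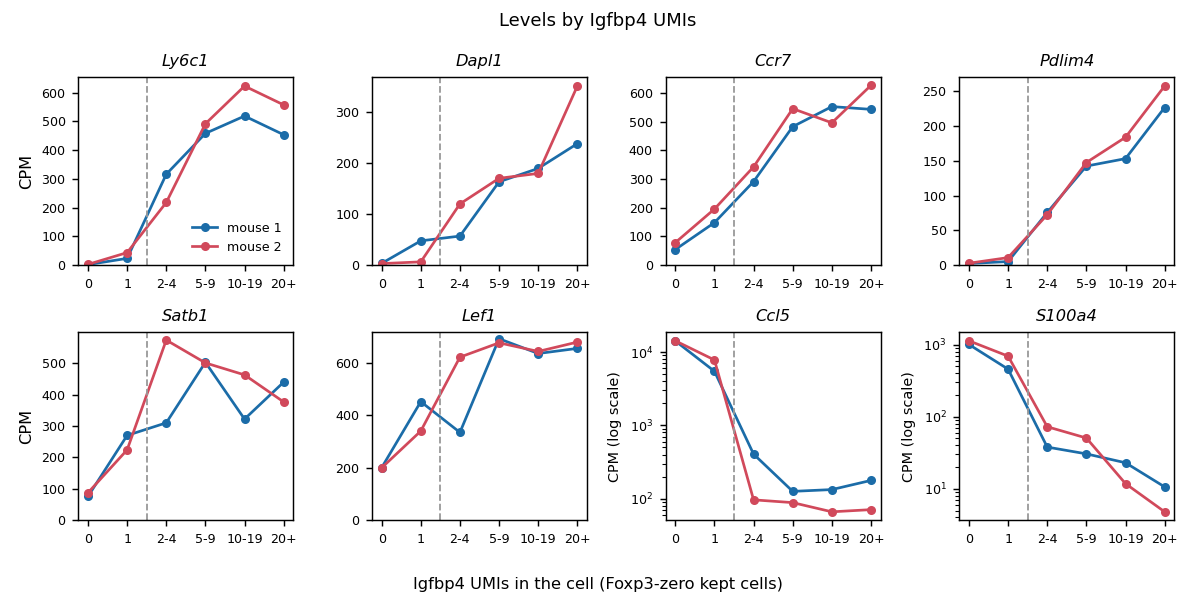
Levels of 8 genes in CPM (y axis, log scale for Ccl5 and S100a4) in cells grouped by their Igfbp4 UMIs (x axis), 1 line per mouse; the dashed line marks the rule of 2 UMIs. Ccr7 goes from 54.7 and 78.7 CPM at 0 UMIs to 542 and 626 at 20 or more, and Ccl5 from 14207 and 14257 to 177 and 70.7.

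Cells with exactly 1 Igfbp4 UMI lay outside the rule. They were also picked by their Igfbp4 UMIs, so their comparison is a description and no independent support for the main one. The 57 and 60 such cells were compared with cells with no Igfbp4 UMI, which also make up most of the remaining cells of the main comparison. Listed naive genes that passed were higher in them and most effector genes were lower, while more genes of receptor signalling were higher than lower. Of 12404 genes tested, 2.87% passed, with 154 higher (1.24%) and 202 lower (1.63%). Of the 12 largest increases of the Igfbp4-high cells 10 were higher here too and none lower, with a median of 1.73 on the log2 scale against -0.06 over all genes. Of the 12 largest decreases 9 were lower and none higher, with a median of -1.18. Bach2 stood at 177 and 199.98 CPM against 32.3 and 38.5 (2.36 ± 0.17, adjusted p = 2.07e-39), Satb1 at 270.1 and 224 against 76.1 and 87.8 (1.53 ± 0.14) and Ccr7 at 148 and 196 against 54.7 and 78.7 (1.31 ± 0.16). The highest cell of each mouse held 21 of 67 and 12 of 91 Bach2 UMIs. For Satb1 it held 19 of 102 and 10 of 102, and for Ccr7 4 of 56 and 14 of 89. Others of the 10 increases rested on few UMIs, such as Myo6 at 3 and 10 and Ly6c1 at 9 and 20. Ccl5 was still at 5473 and 7810.3 CPM, against 14207 and 14257 (-1.18 ± 0.08), so its summed level lay between those of the classes. The sum mixes unlike cells. In cluster 7, described below, the 21 and 17 cells with 1 Igfbp4 UMI had Ccl5 at 146.5 and 98.0 CPM. The Igfbp4-high cells of that cluster were at 152 and 79.5 CPM. Of the naive list 11 of 20 were higher and none lower, and of the effector list 15 of 20 were lower. Pdlim4 and Itgb3 did not pass, at 1.558 (adjusted p = 0.54) and 1.32 (adjusted p = 0.19). Dapl1 passed but lay mainly in mouse 1, at 47.7 CPM against 6.59 in mouse 2. Among 23 interferon genes tested, Usp18 was higher, as in the Igfbp4-high cells, and Irf7 was lower, the reverse of its direction there. Ifitm3, which was not in that list, was higher here and lower in the Igfbp4-high cells. Of 15 genes of receptor signalling 6 were higher (Egr3, Nr4a3, Myc, Nr4a1, Xcl1 and Cd69) and 2 lower, with a median of 0.47, where the Igfbp4-high cells had 3 higher and 10 lower. Nr4a1 (1.20 ± 0.23), Nr4a3 (2.23 ± 0.40), Xcl1 (0.85 ± 0.20) and Penk (1.07 ± 0.27) were higher here. All 4 were lower in the Igfbp4-high cells, with Xcl1 at -3.59 ± 0.27 and Penk at -6.22 ± 0.55 there. These reversals rested on few cells. The highest cell of each mouse held 27 of 29 and 32 of 39 Nr4a1 UMIs, 21 of 24 and 15 of 25 of Penk, 5 of 6 and 72 of 75 of Xcl1, 4 of 6 and 28 of 28 of Nr4a3, and 13 of 15 and 49 of 50 of Ifitm3. A higher Il2 level in mouse 2, at 136 CPM, came from 1 cell with 60 of the 62 UMIs, and one of Hs6st3 mostly from 1 cell with 67 of 109.

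The receptors of the Igfbp4-high cells were examined next, since the rule used only the number of receptor contigs. Cells of 1 mouse were put in 1 clonotype when their TRB chains had the same V call, J call and CDR3 bases. Almost every Igfbp4-high cell had a receptor of its own. The 145 cells of mouse 1 formed 142 clonotypes and the 225 of mouse 2 formed 223. Clonotypes of 1 kept cell held 93.1% (87.7 to 96.6) and 93.3% (89.2 to 96.2) of them, a mean of 93.2% ± 0.163 (SD, n = 2), against 37.9% (36.5 to 39.2) and 37.5% (36.2 to 38.9) of the remaining cells. The intervals are exact binomial and cover counting error only. A paired exact permutation test over 2 mice cannot give a p below 0.5, so no test is given for shares.

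Read by clonotype size, the Igfbp4-high share dropped at the first step. It was 6.74% (5.68 to 7.93) and 10.1% (8.87 to 11.5) among cells of clonotypes with 1 cell, 0.568% (0.229 to 1.17) and 1.23% (0.656 to 2.09) with 2 to 4 cells, and 0.288% (0.0594 to 0.838) and 0.0670% (0.00170 to 0.373) with 20 or more. In clonotypes of 5 to 19 cells it was 0 of 797 cells in mouse 1, which allows a share of up to 0.462%, and 1 of 564 in mouse 2. A larger clonotype is more likely to be seen more than once, so clonotype size depends also on how many cells were sampled.

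Only 4 clonotypes held more than 1 Igfbp4-high cell, 2 in each mouse, and in each of them every kept cell was Igfbp4-high. Their CDR3 sequences are shown because they are the cases where the phenotype was shared by cells of a common receptor. They are written 5′ to 3′ as in the deposited contigs, in lower case where the bases match the end of the germline V or the start of the germline J segment, and in capitals where they match neither.
TRBV19 with TRBJ2-7, mouse 1: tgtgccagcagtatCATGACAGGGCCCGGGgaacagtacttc
TRBV2 with TRBJ1-2, mouse 1: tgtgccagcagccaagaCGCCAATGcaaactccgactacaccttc
TRBV13-3 with TRBJ2-5, mouse 2: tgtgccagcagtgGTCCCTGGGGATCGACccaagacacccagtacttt
TRBV15 with TRBJ2-1, mouse 2: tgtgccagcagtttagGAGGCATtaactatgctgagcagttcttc

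The first clonotype held 3 cells, with 6, 7 and 11 Igfbp4 UMIs, and its unmatched stretch of 16 bases is as long as that of the third. The others held 2 cells each, with 9 and 10, with 4 and 12, and with 3 and 7 Igfbp4 UMIs, and the TRBV2 and TRBV15 clonotypes have 8 and 7 unmatched bases. All 4 V segments are plus-strand genes of chromosome 6 (GRCm38), Trbv2 at 41047340 to 41047995, Trbv13-3 at 41130147 to 41130585, Trbv15 at 41141188 to 41141658 and Trbv19 at 41178375 to 41179048. Over all Igfbp4-high cells with a marked junction, 115 and 179 cells, the unmatched stretch averaged 10.9 ± 4.97 and 10.4 ± 4.68 bases (SD over cells), against 9.72 ± 3.64 and 9.57 ± 3.77 in remaining cells of single clonotypes. The mean was higher in the Igfbp4-high cells of both mice, and it was not tested, since 2 mice are too few. Junctions were marked for 115 of 145 and 179 of 225 Igfbp4-high cells, against 1811 of 1867 and 1771 of 1862 of those remaining cells. The classes also differ in their V segments, as described below. The part of either in the means was not tested.

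In all, 10 Igfbp4-high cells of 7 clonotypes in mouse 1 and 15 of 13 clonotypes in mouse 2 belonged to clonotypes of 2 or more cells. Other cells that they met in their clonotype, counted from each of them in turn, were Igfbp4-high in 8 of 114 cases in mouse 1. In mouse 2 this was 4 of 53. Among all cells of clonotypes with 2 or more cells, 0.326% and 0.482% were Igfbp4-high. In clonotypes of fewer than 20 cells the counts were 8 of 10 and 4 of 29, so these shares depend on the size limit. Clonotypes of 16 or more cells contributed single cells only, and the clonotype of 16 is among those of fewer than 20. In mouse 1 one Igfbp4-high cell was found among 46 cells of a clonotype, one among 39 and one among 23, and in mouse 2 one among 25 and one among 16. These cells did not all look alike. The cell from the clonotype of 25 had 33 UMIs of Igfbp4, 13 of Ccr7 and 10 of Ly6c1 with 2 of Ccl5, while the cell from the clonotype of 23 had only 2 of Igfbp4, 0 of Ccr7 and Ly6c1, 26 of Ccl5 and 16 of Nkg7. That cell held the most Ccl5 UMIs of the Igfbp4-high cells of mouse 1, 12.8% of their sum.

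The V segments of the Igfbp4-high cells differed from those of the other cells of single clonotypes. TRBV26, which encodes Vβ3, was carried by 7 and 6 Igfbp4-high cells, 4.83% (1.96 to 9.69) and 2.67% (0.985 to 5.71), a mean of 3.75% ± 1.53 (SD, n = 2). Among remaining cells of single clonotypes TRBV26 was carried by 56.8% (54.5 to 59.0) and 56.02% (53.7 to 58.3). TRBV23, which encodes Vβ20, was carried by 24.0% and 19.7% of these and by none of the Igfbp4-high cells. Seen from the V segments, 7 of 1907 and 6 of 1706 TRBV26 cells were Igfbp4-high (0.367% and 0.352%), and 0 of 876 and 0 of 638 TRBV23 cells, which allows shares of up to 0.420% and 0.577%. Of the cells with any other V call, 6.02% (5.08 to 7.08) and 7.71% (6.75 to 8.75) were.

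The contrast was wider once clonotype size was held at 1 cell. There 26.3% (22.4 to 30.4) and 31.2% (27.7 to 34.9) of cells with other V calls were Igfbp4-high, against 0.656% (0.264 to 1.35) and 0.477% (0.155 to 1.11) of TRBV26 cells and none of 448 and 367 TRBV23 cells. The other V calls did not divide in this way. Among the 11 and 12 calls with at least 20 such cells, the share ran from 12.9% (TRBV3) to 35.7% (TRBV2) in mouse 1 and from 24.5% (TRBV19) to 40% (TRBV10) in mouse 2. The most frequent calls among Igfbp4-high cells were TRBV12-2+TRBV13-2, for which the contig table names both genes, with 20.7% and 20.4%, and TRBV2 with 15.9% and 11.6%. Weighted by frequency, the use equalled that of 9.59 and 10.5 equally common V calls, against 2.61 and 2.79 in remaining cells of single clonotypes. With TRBV26 and TRBV23 left out that contrast turned, to 8.88 and 10.04 in Igfbp4-high cells against 12.7 and 11.1. The number of TRA chains gave no such contrast. A second TRA chain was found in 8.28% (4.35 to 14.0) and 15.6% (11.1 to 20.96) of Igfbp4-high cells and in 15.2% and 14.3% of remaining single cells, so the mice pointed opposite ways.

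**Figure D4:**
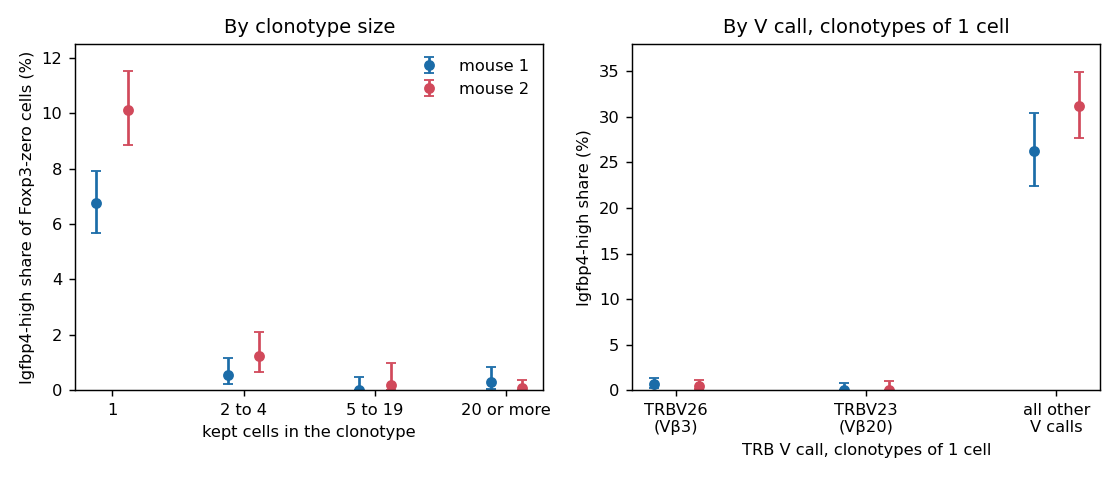
Igfbp4-high share of Foxp3-zero cells in percent with exact 95% intervals, by clonotype size (left) and, within clonotypes of 1 cell, by TRB V call (right), 1 colour per mouse. The share is 6.74% and 10.1% in clonotypes of 1 cell, and within these 26.3% and 31.2% for V calls other than TRBV26 and TRBV23.

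The 13 Igfbp4-high cells with TRBV26 were too few for a test of expression, and their summed levels are given with exact Poisson intervals that cover counting error only. Ccr7 was at 227 CPM (117 to 397) and 144 (62.0 to 283), below the 508 (466 to 552) and 533 (502 to 565) of the other Igfbp4-high cells. Ly6c1 differed between the mice, with 0 UMIs in the 7 cells of mouse 1 and 467 CPM (305 to 684) in the 6 of mouse 2. S100a4 differed as well, at 75.7 CPM (20.6 to 194) in mouse 1 and 413 (262 to 619) in mouse 2, against 21.4 and 20.3 in the others. Without TRBV26 cells in either class, 1937 genes were higher and 2393 lower in Igfbp4-high cells. Restricted to clonotypes of 1 cell in both classes, 1673 were higher and 1991 lower.

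The 10 and 15 Igfbp4-high cells of larger clonotypes were also set against the 135 and 210 of single clonotypes, and the calls did not hold up. Of 6644 genes tested, 1.44% passed, with 23 higher (0.346%) and 73 lower (1.1%). These calls hung on the mouse block and on 2 cells: without the block no gene passed in edgeR, with 597 genes at an unadjusted p under 0.05, and none in DESeq2, with 53. Nkg7 was at 292 and 156 CPM against 39.5 and 34.03 (2.36 ± 0.39, adjusted p = 4.32e-06), but 1 cell held 16 of the 18 UMIs in mouse 1 and another 16 of the 19 in mouse 2. Without these 2 cells Nkg7 was at 38.1 and 27.7 CPM (-0.34 ± 0.74, adjusted p = 1.00), and of 6979 genes none passed in edgeR, with 300 at an unadjusted p under 0.05. Lef1 was at 292 and 419.7 CPM against 632 and 674 (-0.99 ± 0.19), and at 324 and 462 CPM without them (-0.85 ± 0.23, adjusted p = 0.94). Ccr7 did not pass, at 454 and 502 CPM against 497 and 524. The other increases by the naming rule were Runx2, Tigit and the DNA replication genes Clspn, Pold3, Lig1 and Rrm2 with Stmn1, from 1.497 to 3.07. Other decreases were Ly6c1, Rtraf, Zfp36, Washc3, Txndc15 and Atp6v1e1, from -0.89 to -3.60. Mki67 passed at 2.62 ± 0.36 although the mice pointed opposite ways, at 956 CPM against 34.8 in mouse 1, where 1 cell held 52 of 59 UMIs, and 24.7 against 54.0 in mouse 2. Of the naive list none of 20 was higher and 2 were lower.

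Clustering of the Foxp3-zero cells without Igfbp4, Foxp3 and receptor segments placed most Igfbp4-high cells together. Of 14 clusters, cluster 7 held 129 (89.0%) and 196 (87.1%) of them. Its leading genes were Ly6c1, Dapl1, Pdlim4, Plac8, Treml2, Myo6, Ifit3, Ifit3b, Ccr7 and Ifit1, so it holds naive and interferon-induced genes at once, and it is called by its number. Igfbp4-high cells made up 38.7% (33.5 to 44.2) and 38.7% (34.5 to 43.1) of its 333 and 506 cells. The other 183 and 293 cells with 0 Igfbp4 UMIs and 21 and 17 with 1 shared the cluster with them. Outside cluster 7, 7 and 11 Igfbp4-high cells lay in cluster 6, led by division genes such as Pclaf and Ube2c, and 7 and 14 in cluster 8, whose cells were shallow, at medians of 3476 and 3959 UMIs.

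Within cluster 7, a comparison chosen after the data were seen, the Igfbp4-high cells still differed from the other cells. Of 8897 genes tested, 17.3% passed, with 720 higher (8.09%) and 817 lower (9.18%). Since all of these cells had been clustered on most of the same genes, the calls describe how the cluster divides. Ly6c1 was at 503 and 532 CPM against 28.1 and 26.04 (4.43 ± 0.11), and Dapl1 at 191 and 241 against 30.3 and 11.2 (3.77 ± 0.15). S100a4 was at 12.9 and 18.4 CPM against 287 and 466 (-4.45 ± 0.14) and the gut and Th17 homing receptor Ccr6 at 0 and 0.527 against 59.2 and 50.9 (-6.87 ± 0.51).

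Other naive genes were shared across cluster 7. Il7r stood at 319 and 399 CPM against 357 and 477, Klf2 at 942 and 960 against 1144 and 1002, and Tcf7 at 533 and 602 against 638 and 667, and none of these passed. Of the naive list 13 of 20 were higher and 1 lower (median 0.50 against 0.00 over all genes), and of the effector list 15 of 19 were lower. The interferon-induced genes were divided, with 4 higher and 10 lower of 23. Gbp2, a guanylate-binding protein, was at 226 and 198 CPM against 107 and 119.8 (1.01 ± 0.10), while Isg15, a ubiquitin-like modifier, was at 115 and 93.8 against 243 and 272 (-1.21 ± 0.10). Receptors differed as well, with 94.6% and 94.9% of the Igfbp4-high cells of the cluster in clonotypes of 1 cell, against 68.3% and 63.1% of its cells with 0 Igfbp4 UMIs, and TRBV26 in 3.88% and 2.55% against 9.84% and 9.22%.

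The Igfbp4-high cells were themselves divided by Ly6c1, a comparison also chosen after the data were seen. Ly6c1 had UMIs in 78 of 145 and 132 of 225 cells, with medians of 6 and 5 UMIs in these and maxima of 24 and 42. Depth did not follow this division in a common direction, at medians of 8048 and 9626 UMIs with Ly6c1 against 7437 and 9990 without. Igfbp4 was at 2010 and 2045 CPM in the former and 1588 and 1251 in the latter, given without a test. Of 7444 genes tested, 3.73% passed, with 190 higher (2.55%) and 88 lower (1.18%), and without the mouse block 29 and 15.

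Interferon-induced genes were higher in the cells with Ly6c1, 16 of 22 with none lower and a median of 0.84 against -0.003 over all genes. Ifit1 was at 39.9 and 37.3 CPM against 12.01 and 5.44 (2.38 ± 0.41) and Isg15 at 163 and 102 against 38.04 and 75.1 (1.13 ± 0.20). Pdlim4 was at 223 and 283 CPM against 76.1 and 40.3 (2.39 ± 0.18) and Dapl1 at 220.3 and 324 against 120.1 and 101 (1.49 ± 0.15). Ccr7 differed less, at 549 and 577 CPM against 426 and 449 (0.48 ± 0.10). The cells without Ly6c1 had higher levels of the cell cycle kinase Cdk6, at 120.1 and 92.5 CPM against 20.8 and 36.5 (-1.62 ± 0.23), of the Th1 receptor Cxcr3, at 98.1 and 187 against 62.3 and 47.6 (-1.41 ± 0.19), and of Id2, at 156 and 167 against 36.7 and 70.6 (-1.38 ± 0.19). Of the naive list 8 of 20 were higher and none lower, and of the effector list 9 of 16 were lower and 1 higher. Other leading genes were Myo6, Gm50237, Atp1b1, Rtp4, Ifi213, Usp18 and Slpi on the higher side, and Def8, Sorl1, Mki67, S100a6, Tnfrsf4, Cks2 and Trerf1 on the lower.

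**Figure D5:**
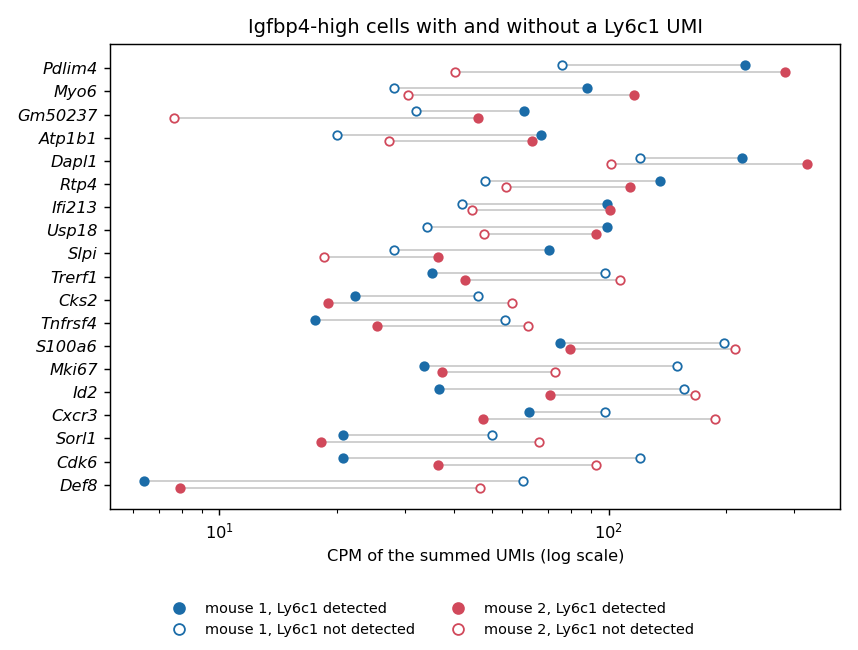
Levels in CPM (x axis, log scale) of leading increases and decreases between Igfbp4-high cells with a Ly6c1 UMI (filled points) and without one (open points), 1 colour per mouse, joined within a mouse. Pdlim4 lies at 223 and 283 CPM with Ly6c1 and at 76.1 and 40.3 without, and Cdk6 at 20.8 and 36.5 with and 120.1 and 92.5 without.

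The need for a receptor contig limited the number of Igfbp4-high cells. Of barcodes that passed the gene and mitochondrial limits with at least 2 Igfbp4 and 0 Foxp3 UMIs, 334 in mouse 1 and 413 in mouse 2, only 145 and 225 were kept. No contig was found for 157 (47.0%, 41.6 to 52.5) and 158 (38.3%, 33.5 to 43.1), against 28.5% and 23.3% of barcodes outside the Igfbp4 rule, and another 26 and 24 had a second TRB contig. The Igfbp4-rule barcodes without contigs had Ccr7 at 343 and 390.03 CPM and Ly6c1 at 370 and 475 CPM, near the Igfbp4-high cells, but Ccl5 at 4408.5 and 2629 CPM, far above the 180.3 and 78.9 of the Igfbp4-high cells. They were deeper, at medians of 9528 and 10646.5 UMIs, and doublets, which were not called here, were not tested for a part in this. Trbv26 transcripts led the V segments in 7.91% and 2.67% of those with V transcripts, against 31.6% and 12.3% of barcodes outside the rule without contigs.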

How the data were processed

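Single-cell 5′ expression and T cell receptor libraries of 2 hosts were used. The authors deposited UMI counts per gene and barcode and a contig table per host, made with Cell Ranger 7.0.1 on mm10 (GRCm38), per the submitters' processing notes; further settings are not given in the sources used here. Free RNA was not measured and doublets were not called, beyond the limit of 1 TRB and 2 TRA contigs. Counts were summed per mouse and class and tested with edgeR 4.0.16 in R 4.3.3 (quasi-likelihood, TMM factors, filterByExpr, mouse as a block because both classes come from the same host). That fit leaves 1 residual degree of freedom, so its p-values rest on the spread pooled over genes. The script was tested on simulated data: of genes changed by 1 on the log2 scale in the comparison with the remaining cells, run on 12704 genes, 67.7% were recovered, and of those changed by 2, 86.9%. DESeq2 1.42.0 was an alternative. Clusters came from scanpy 1.11.5 (Leiden, resolution 0.60, 2000 variable genes, 30 components). The genes named were the 12 largest increases and 12 largest decreases among calls whose direction was shared by the mice and whose level reached 50 CPM in a class, the markers Ly6c1, Dapl1 and Ccr7, and the 2 largest changes of each list. Other listed genes, and the genes of the comparisons within the cluster and by Ly6c1, were picked after their values were seen. The members and lists were chosen with earlier results of these data known. Some genes of the lists are not reported here. Gene positions are from GENCODE M21.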

Additional observations from a re-analysis of the deposited data

How the results depend on the processing

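In the comparison with the remaining cells, leaving out the replicate block gave 1455 higher and 1781 lower genes, of which 3228 were among the 4320 called with it, and DESeq2 called 845 higher and 945 lower. For 1 against 0 Igfbp4 UMIs, no replicate block gave 102 higher and 77 lower, DESeq2 33 and 28, and cells of 4000 to 10000 UMIs 63 and 122. For larger against single clonotypes, no replicate block gave 0 and 0, DESeq2 0 and 0, and leaving out the cell of each mouse with the most Nkg7 UMIs, chosen after the data were seen, 0 and 0. Within cluster 7, no replicate block gave 435 and 515 and DESeq2 159 and 147. By Ly6c1, no replicate block gave 29 and 15 and DESeq2 7 and 0. The cause was not tested. The share of Igfbp4-high cells was 6.89% with 1 cell per clonotype, and 2.86% to 4.34% with a mouse left out. Their share in clonotypes of 1 cell was 94.6% with 1 cell per clonotype, 94.3% with the rule applied after thinning to 3000 UMIs and 94.1% with at least 3 Igfbp4 UMIs, and 93.1% to 93.3% with a mouse left out; their TRBV26 share was then 2.67% to 4.83%. Of 726 values of 52 named genes under these alternatives, 704 kept direction and, where an adjusted p was given, side of the threshold. Values with a mouse left out, and DESeq2 values lacking an adjusted p, were judged on direction alone. For the 12 largest increases and 12 largest decreases, the naming rule had fixed the direction with a mouse left out. Another 21 values kept direction and no longer passed (genes with few counts, such as Il23r and Igf1, and the cycle genes). Ube2c turned from -1.35 to 0.19 in cells of 4000 to 10000 UMIs. Leaving out a mouse leaves no residual degree of freedom for a gene test. With 145 and 225 cells, levels near 1 UMI per sum are loosely set.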

Other observations

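Ccr7 lies near Igfbp4 on mouse chromosome 11, which led to a look, chosen after the values were seen, at the protein-coding genes within 300 kb. Of 16 such genes 11 were tested between Igfbp4-high and remaining cells, and 4 were higher and none lower, against 15.2% higher over all genes. Rara, the retinoic acid receptor α gene, starts 113.4 kb before Igfbp4 and stood at 57.7 and 64.3 CPM against 15.99 and 21.8 (edgeR log2 difference 1.85 ± 0.14, adjusted p = 2.88e-28). Gjd3, a connexin gene, stood at 3.55 and 5.05 CPM against 0.328 and 0.687 (3.21 ± 0.70), Ccr7 at 3.09 ± 0.07 and Casc3 at 0.42 ± 0.15. The gene whose start is nearest, Top2a, did not pass, at -0.21 ± 0.09, Tns4, whose body is nearest, was not tested, and Smarce1, beyond Ccr7, was at 0.00 ± 0.11.

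Over the 13 clusters holding 50 or more cells in mouse 1 and also in mouse 2, the genes most like Igfbp4 by the mean Spearman correlation of both mice were Mat2a (0.78), Gnl3 (0.76), Zfp326 (0.69), Dkc1 (0.69), Focad (0.69), Zbtb11 (0.68), Atp10a (0.67) and Ubap2 (0.67), among 6334 genes ranked. Igfbp4 was at 828 and 779 CPM in cluster 7 and at most 49.5 and 65.9 CPM in the other clusters ranked. In most of them it was near the floor, as in cluster 1 at 1.93 and 1.97 CPM. Most ranks therefore rest on few Igfbp4 UMIs. The clusters also share libraries and differ in depth, and the values are a description.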
